A study of Mus musculus with 19 samples.

Results

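The pathway from tryptophan to NAD was followed through 10 genes, Tdo2, Ido2, Afmid, Kmo, Kynu, Haao, Acmsd, Qprt, Nadsyn1 and Nampt, chosen by name for their place in it. Earlier results of these data were known when they were chosen. All 10 were among the 24192 genes of the joined count tables, and all 10 passed the filter on low counts in every comparison. Livers of 19 adult mice were taken whole and gave 1 library each, measured by RNA sequencing in libraries without strand information. The 4 groups crossed diet with genotype. LF-C, 4 libraries, were control mice on a low fat diet (LFCF in the labels), and LF-KO, 4 libraries, were mice with a hepatocyte-specific PPARγ knockout on the same diet. HF-C, 5 libraries, were control mice on a diet that combined high fat with cholesterol and fructose (HFCF), and HF-KO, 6 libraries, were knockout mice on that diet. The labels give 24 weeks of the HF diet for both HF groups. The labels describe the livers of both HF groups as having NASH, fatty liver with inflammation, those of the LF groups as healthy, and the knockout as induced before the HF diet began. The labels used here do not name the agent that deleted the gene, the deleted exons, or the strain, sex or age in weeks of the mice.

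Mammalian liver breaks down most dietary tryptophan through the kynurenine pathway. A dioxygenase opens the indole ring, and a chain of enzymes then passes the carbon skeleton to hydroxyanthranilate and an unstable semialdehyde. That semialdehyde either closes by itself to quinolinate, from which NAD is built, or is taken by a decarboxylase towards complete oxidation. Most NAD in other tissues is instead recycled from nicotinamide by a salvage route, which liver uses as well. Hepatocytes are the main site of the full route, so its genes are counted among those typical of differentiated liver.

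Pparg, the targeted gene, was not lower in the libraries labelled KO. It measured 11.2 ± 5.74 CPM (counts relative to the scaled library total, SD, n = 4) in LF-C, 25.3 ± 15.4 CPM (n = 4) in LF-KO, 25.4 ± 4.32 CPM (n = 5) in HF-C and 68.7 ± 25.6 CPM (n = 6) in HF-KO. The libraries labelled HF-KO were higher than HF-C by 1.47 ± 0.23 (log2 fold change ± SE, edgeR quasi-likelihood test, adjusted p = 0.00275). Counts per gene do not separate a deleted exon from the others, so these values do not check the deletion, and the genotype is used below as labelled.

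One library stood apart before any comparison. LF-C-2 had 1.64% of its counts on mitochondrial genes against 4.02% to 5.92% in the other 18 libraries, and a TMM scaling factor of 0.644. Its deviation from the group mean also followed gene length (Spearman's rho across 10932 genes of -0.57, short genes high), as did that of LF-C-1 (-0.29), while LF-C-3 and LF-C-4 deviated the other way (0.57 and 0.55). Being taken from the group mean, deviations within a group offset each other. Such deviations were not particular to LF-C. In the other groups rho ranged from -0.49 (HF-KO-2) to 0.48 (HF-KO-5), and LF-KO-1 (0.43) and HF-C-1 (0.42) also exceeded LF-C-1 in size. The scaling factor of LF-C-1, 0.870, was near that of LF-KO-3, 0.865. Fold changes against LF-C and interaction values that are named for the 10 genes, and for the named or called genes of the wider list other than Got2, are also given without LF-C-1 and LF-C-2, an alternative chosen after seeing the data. Totals ranged from 11437875 to 20711869 counts per library. In whole tissue, fewer cells of a type and less RNA per cell cannot be told apart.

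Per kilobase of the listed gene length, Tdo2 and Haao were the most abundant of the 10 genes, at 466 ± 160 and 445 ± 262 CPM per kb (mean ± SD, 19 libraries). These neighbours did not differ beyond their spread, and Haao stood first in LF-C (758 ± 432 CPM per kb) and second in the other groups. Qprt followed at 108 ± 30.9 CPM per kb, then Kmo at 73.7 ± 17.6 and Kynu at 65.7 ± 18.2 CPM per kb, again within each other's spread. Ido2 measured 26.1 ± 10.1 and Nampt 17.0 ± 5.60 CPM per kb. Nadsyn1 (8.95 ± 2.21), Afmid (7.76 ± 3.06) and Acmsd (6.41 ± 2.59 CPM per kb) were the lowest and overlapped. Ido1, the inducible dioxygenase of immune cells, reached at most 0.0581 CPM in any library, so Tdo2 and Ido2 were the dioxygenases detected at this depth.

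The promoters of 3 members are shown because they hold the hexamer AGGTCA, or its reverse complement TGACCT, the half-site that nuclear receptors such as PPARγ, HNF4A and RXR bind. The windows run from 250 bases before to 50 bases after the RefSeq start in build GRCm38.p6, 5′ to 3′ on the gene's strand, with the hexamer in capitals. They lie at chr17:83846741-83847040 (Haao, minus strand), chr3:81975679-81975978 (Tdo2, minus strand) and chr12:32820085-32820384 (Nampt, plus strand).
Haao: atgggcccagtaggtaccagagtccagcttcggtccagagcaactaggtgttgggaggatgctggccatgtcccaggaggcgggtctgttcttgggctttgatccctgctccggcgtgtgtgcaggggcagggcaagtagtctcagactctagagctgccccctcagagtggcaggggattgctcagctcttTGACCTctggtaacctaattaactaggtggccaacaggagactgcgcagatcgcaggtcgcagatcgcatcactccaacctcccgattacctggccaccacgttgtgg
Tdo2: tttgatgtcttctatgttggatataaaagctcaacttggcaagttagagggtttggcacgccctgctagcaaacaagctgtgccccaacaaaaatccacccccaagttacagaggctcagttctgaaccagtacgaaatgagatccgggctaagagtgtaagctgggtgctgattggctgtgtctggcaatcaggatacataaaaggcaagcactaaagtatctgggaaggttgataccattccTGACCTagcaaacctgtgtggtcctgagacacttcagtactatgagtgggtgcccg
Nampt: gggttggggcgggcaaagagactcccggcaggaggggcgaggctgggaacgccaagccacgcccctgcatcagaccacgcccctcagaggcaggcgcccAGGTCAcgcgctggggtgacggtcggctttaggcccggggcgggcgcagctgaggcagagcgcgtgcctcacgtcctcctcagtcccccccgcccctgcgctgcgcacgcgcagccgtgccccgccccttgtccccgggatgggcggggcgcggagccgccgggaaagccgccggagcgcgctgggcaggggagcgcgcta
The hexamer began at position -58 from the start in Haao, -6 in Tdo2 and -151 in Nampt. It was present in 3 of the 7 members whose promoters were searched, against 16.3% of 32851 promoters of the same length. The DR1 element on either strand, a direct repeat of that half-site with a single base between, which PPAR-RXR pairs and HNF4A can bind, was in 0 of the 7 windows and in 0.0396% of all promoters. Among the other motifs searched on both strands, GTTAAT (HNF1 half-site, 7.1% of promoters) was in the Haao window. TTCNNNGAA (STAT, 8.3%) was in Qprt, and the TATA box letters TATAAA (13.6% of promoters) stood in the Tdo2 window, at position -229 from the start. TTGCNNAA (C/EBP, 10.8%) and CACGTG (E-box, 7.15%) were in none of the 7 windows. These matches describe letters in a window and not binding.

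**Figure D1:**
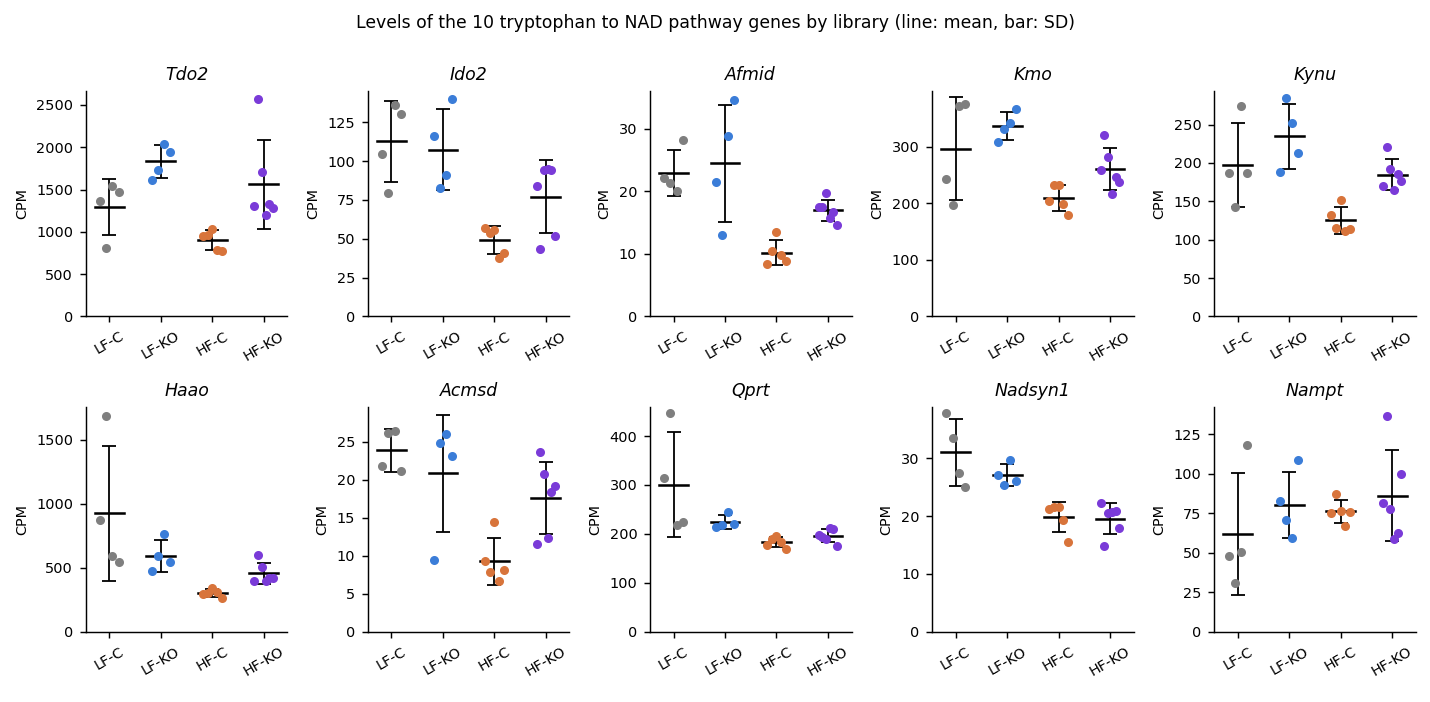
Level of each of the 10 genes in every library, in CPM on a linear axis from 0; points are libraries, the line is the group mean and the bar the SD (4, 4, 5 and 6 libraries). Ido2, Afmid, Haao, Acmsd, Qprt and Nadsyn1 lie lower in every HF-C library than in any LF-C library, and the HF-KO points of Tdo2, Afmid, Kynu and Haao lie above all HF-C points.

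The first comparison asked how the HF diet changed the pathway in control livers. Of the 10 genes, 7 were lower in HF-C than in LF-C and 0 were higher (edgeR, adjusted p under 0.05), where 7.15% of the 13825 genes tested were called lower and 17.8% were called in either direction. The genes that fell were Haao, Acmsd, Ido2, Afmid, Qprt, Kynu and Nadsyn1. The median log2 fold change of the 10 was -0.71, against 0.02 over all genes tested. In 6 of them every HF-C library was below every LF-C library, which held for 8.44% of all genes.

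At the entry to the pathway, Ido2 (ENSMUSG00000031549, chromosome 8, 24531894 to 24576333, minus strand; these and the following positions are those of the deposited tables, whose build is not given in the sources used here) fell. Ido2 encodes a dioxygenase related to Ido1 with low activity on tryptophan. It measured 105, 79.6, 136 and 130 CPM in the LF-C libraries and 57.1, 53.9, 55.9, 37.6 and 41.2 CPM in the HF-C libraries, listed here and below by replicate number. The groups did not overlap, and the log2 fold change was -1.22 ± 0.20 (edgeR, adjusted p = 0.00243), or -1.44 without LF-C-1 and LF-C-2. Tdo2 (ENSMUSG00000028011, chromosome 3, 81957090 to 81975750, minus strand), the tryptophan dioxygenase that carries most of the flux in liver, did not pass the test. It measured 1363, 809, 1546 and 1466 CPM in LF-C and 947, 961, 1039, 790 and 770 CPM in HF-C. Only LF-C-2 fell into the HF-C range. The log2 fold change was -0.54 ± 0.20 (edgeR, adjusted p = 0.0852), and without LF-C-2 it was -0.73 (edgeR, adjusted p = 0.00313).

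Among the enzymes that carry formylkynurenine to the semialdehyde, Afmid, Kynu and Haao fell and Kmo did not pass the test. Afmid (ENSMUSG00000017718, chromosome 11, 117825924 to 117839908, plus strand), the formamidase that releases kynurenine, measured 22.2, 21.4, 20.1 and 28.3 CPM in LF-C and 8.33, 10.5, 13.5, 9.81 and 8.95 CPM in HF-C. Every HF-C library was lower, with a log2 fold change of -1.19 ± 0.19 (edgeR, adjusted p = 0.00202), or -1.24 without LF-C-1 and LF-C-2. Its listed position overlaps Tk1 on the other strand, and Tk1, thymidine kinase of dividing cells, also fell (log2 fold change -1.41 ± 0.32, edgeR, adjusted p = 0.0128). Without strand information, reads from the overlap cannot be told apart. Kmo (ENSMUSG00000039783, chromosome 1, 175620381 to 175662116, plus strand), which hydroxylates kynurenine, ranged from 196 to 375 CPM in LF-C and from 180 to 233 CPM in HF-C. Its log2 fold change was -0.52 ± 0.20 (edgeR, adjusted p = 0.10), and without LF-C-2, its lowest LF-C library, it was -0.68 (edgeR, adjusted p = 0.00750). Kmo overlaps Fh1 on the other strand, which fell by 0.87 on the log2 scale (SE 0.19, edgeR, adjusted p = 0.00976).

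Kynu (ENSMUSG00000026866, chromosome 2, 43555329 to 43682715, plus strand), kynureninase, measured 187, 143, 274 and 187 CPM in LF-C and 133, 115, 152, 111 and 114 CPM in HF-C. One HF-C library reached above the lowest LF-C library, and the log2 fold change was -0.68 ± 0.19 (edgeR, adjusted p = 0.0342), or -0.88 without LF-C-1 and LF-C-2. Haao (ENSMUSG00000000673, chromosome 17, 83831356 to 83846790, minus strand), the dioxygenase that makes the semialdehyde, measured 877, 1687, 593 and 549 CPM in LF-C and 294, 307, 342, 308 and 261 CPM in HF-C. All HF-C libraries were lower, and LF-C-2 and LF-C-1 were the highest of all. The log2 fold change of -1.66 ± 0.32 (edgeR, adjusted p = 0.00611) was -0.92 (edgeR, adjusted p = 0.000269) without LF-C-1 and LF-C-2. Haao, with 1222 bases, has the shortest listed length of the 10 genes.

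At the branch point, both the gene that leads away from NAD and the gene that leads to it fell. Acmsd (ENSMUSG00000026348, chromosome 1, 127729413 to 127767978, plus strand), the decarboxylase that diverts the semialdehyde from quinolinate, measured 21.8, 26.2, 26.4 and 21.1 CPM in LF-C. It measured 9.29, 7.81, 14.5, 6.65 and 8.11 CPM in HF-C. The log2 fold change was -1.39 ± 0.23 (edgeR, adjusted p = 0.00287), and without LF-C-1 and LF-C-2 it was -1.35. Qprt (ENSMUSG00000030674, chromosome 7, 127107114 to 127122226, minus strand), which turns quinolinate into the first mononucleotide of NAD synthesis, measured 315, 446, 218 and 224 CPM in LF-C and 177, 190, 196, 183 and 170 CPM in HF-C. The groups did not overlap, but LF-C-1 and LF-C-2 were well above LF-C-3 and LF-C-4. Its log2 fold change of -0.75 ± 0.23 (edgeR, adjusted p = 0.0446) was -0.27 (edgeR, adjusted p = 0.0724) without those libraries. The ratio between Acmsd and Qprt was not tested.

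Nadsyn1 (ENSMUSG00000031090, chromosome 7, 143795584 to 143822849, minus strand), the synthetase that makes NAD from its acid form, measured 37.8, 33.6, 27.5 and 25.1 CPM in LF-C and 21.3, 21.6, 21.6, 19.3 and 15.6 CPM in HF-C. Every HF-C library was lower, with a log2 fold change of -0.67 ± 0.18 (edgeR, adjusted p = 0.0290), which was -0.40 (edgeR, adjusted p = 0.0532) without LF-C-1 and LF-C-2. Nampt (ENSMUSG00000020572, chromosome 12, 32820335 to 32853369, plus strand), the rate-limiting enzyme of nicotinamide salvage, did not pass the test. It measured 47.8, 30.6, 50.5 and 118 CPM in LF-C and 75.2, 87.5, 76.5, 66.8 and 75.7 CPM in HF-C. LF-C-4 was above all HF-C libraries and the other LF-C libraries were below them. The log2 fold change was 0.29 ± 0.32 (edgeR, adjusted p = 0.554). It was 0.80 without LF-C-4 (edgeR, adjusted p = 0.0196) and -0.14 without LF-C-1 and LF-C-2 (edgeR, adjusted p = 0.691). Which of the 4 LF-C libraries were kept set the direction of Nampt. The listed position of Nampt overlaps Gdap10, a non-coding gene on the same strand with at most 105 counts in a library, and that of Acmsd overlaps an antisense gene with at most 3.

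Ido2, Afmid, Haao and Acmsd kept their call whichever of the 9 libraries was left out. Kynu lost it without LF-C-1 or LF-C-3, or without any 1 HF-C library other than HF-C-3 (adjusted p up to 0.0955, edgeR). Qprt and Nadsyn1 lost it without LF-C-1 or any 1 HF-C library, with adjusted p values up to 0.111 for Qprt and 0.0871 for Nadsyn1 (edgeR). These 3 genes also did not pass with library size alone (edgeR, adjusted p from 0.233 to 0.40) or with no filter on low counts (edgeR, adjusted p from 0.0518 to 0.0570). Without both LF-C-1 and LF-C-2 the count was again 7 of 10, with Tdo2 (-0.74) and Kmo (-0.83) in place of Qprt and Nadsyn1. More genes were called lower in that fit, 1882 of 14478 against 988 of 13825 with all 9 libraries.

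**Figure D2:**
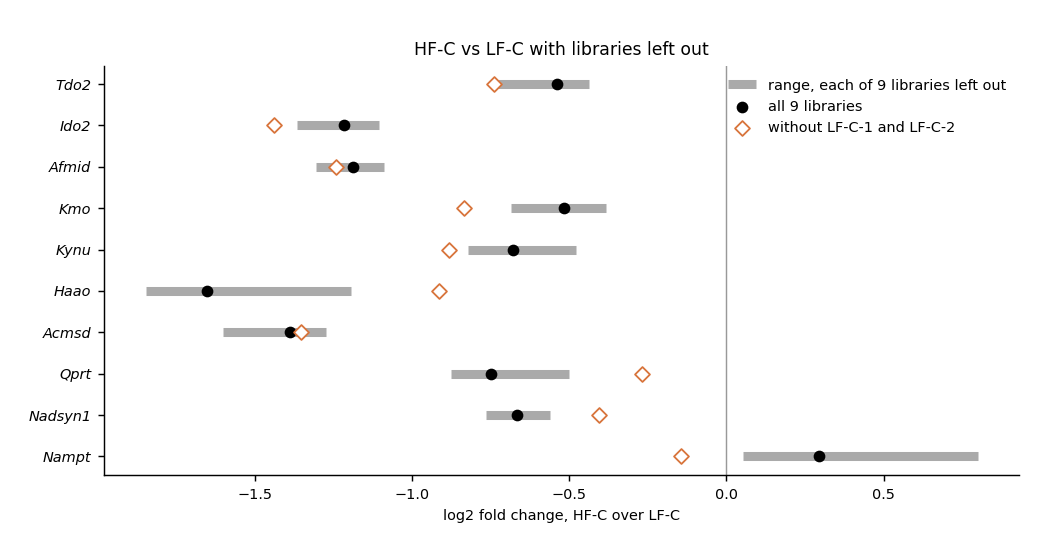
Log2 fold change of each gene in HF-C over LF-C. The black point is the value from all 9 libraries, the grey bar the range when each library in turn is left out, and the open diamond the value without LF-C-1 and LF-C-2. Haao moves from -1.66 to -0.92 and Qprt from -0.75 to -0.27, while Acmsd and Afmid stay near their values from all libraries.

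Markers of hepatocytes moved in the same direction. Of 12 hepatocyte markers, 9 were lower in HF-C and 0 were higher, where 7.15% of all genes were called lower and 10.6% higher. The median log2 fold change of the hepatocyte markers was -0.94, and their summed level ranged from 98090 to 211400 CPM in LF-C and from 53670 to 68680 CPM in HF-C. Macrophage and monocyte markers summed to 275 to 1013 CPM in LF-C and 728 to 1154 CPM in HF-C, with 7 of 12 higher and 1 lower. Stellate cell and fibroblast markers summed to 236 to 272 CPM and 595 to 947 CPM, with 4 of 7 higher. Of the rest, Des (-1.05 ± 0.58) and Acta2 (-1.57 ± 0.72) had estimates below 0 and Lrat (0.47 ± 0.23) above, none of them called. Cholangiocyte markers summed to 33.7 to 115 CPM and 156 to 513 CPM, with 3 of 5 higher. Most of that sum in HF-C was Spp1 (335 ± 130 CPM). Epcam (log2 fold change 2.15 ± 0.44) and Sox9 (1.43 ± 0.30) were called higher besides Spp1, and Krt19 (-1.94 ± 1.12) and Krt7 (0.17 ± 0.65) were not called. None of these markers was at 0 in all libraries, and their part in the pathway's fall was not tested.

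The second comparison asked the same of the diet in the livers labelled KO. None of the 10 genes passed the test between HF-KO and LF-KO (0 of 10 by edgeR), where 4.68% of 13624 genes were called and 1.06% were called lower. At an unadjusted p under 0.05 (edgeR) stood 5 of the 10 and 2689 of the 13624 genes. DESeq2 called 1 of the 10 lower, Nadsyn1, where it called 447 of 15438 genes lower. The point estimates were below 0 for 9 of 10, with a median of -0.35 and a range from -0.53 (Afmid) to 0.10 (Nampt). Nadsyn1 had the smallest p. It measured 27.2, 25.4, 29.7 and 26.1 CPM in LF-KO and 14.8, 20.7 and 22.2 CPM (lowest, median and highest of 6) in HF-KO. The groups did not overlap, and the log2 fold change was -0.47 ± 0.13 (edgeR, adjusted p = 0.0695). Qprt also did not overlap, at 215 to 246 CPM in LF-KO and 176 to 212 CPM in HF-KO, with a log2 fold change of -0.19 ± 0.11 (edgeR, adjusted p = 0.394). The pair made up 2 of 10 genes, against 2.93% of all genes below in every library.

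Haao measured 471, 592, 760 and 547 CPM in LF-KO and 395, 420 and 603 CPM (lowest, median, highest) in HF-KO, and its log2 fold change was -0.37 ± 0.17 (edgeR, adjusted p = 0.242). Acmsd measured 9.49, 24.8, 26.0 and 23.1 CPM in LF-KO and 11.6, 18.8 and 23.6 CPM in HF-KO, and its log2 fold change was -0.24 ± 0.28 (edgeR, adjusted p = 0.711). In both genes the groups overlapped, and LF-KO-1 was the lowest library for Acmsd. Single libraries decided further calls here. Afmid passed without LF-KO-2 (-0.74, edgeR, adjusted p = 0.0281), and Kmo (-0.43, edgeR, adjusted p = 0.0353) and Nadsyn1 (-0.40, edgeR, adjusted p = 0.0365) passed without HF-KO-2. The hepatocyte markers were lower in 4 of 12 cases with a median of -0.51, summing to 105800 to 139300 CPM in LF-KO and 70110 to 84880 CPM in HF-KO. Of 12 macrophage and monocyte markers, 9 were higher in HF-KO with a median of 1.59, where 493 of all 13624 genes tested were called higher. These 12 markers summed to 212 to 379 CPM in LF-KO and 481 to 917 CPM in HF-KO. Stellate cell and fibroblast markers were higher in 1 of 7 cases (median 0.58), sinusoidal endothelial cell markers in 1 of 6 (median 0.41) and cholangiocyte markers in 1 of 5 (median 0.75). The part of these markers in the members' values was not tested.

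**Figure D3:**
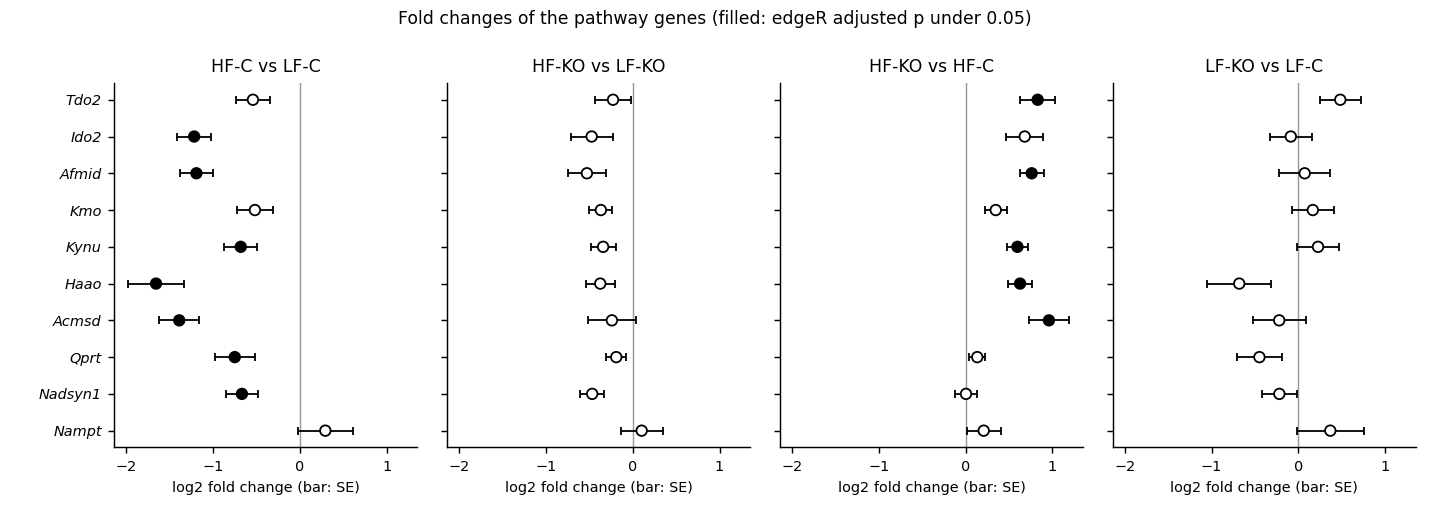
Log2 fold change ± SE of the 10 genes in the 4 pairwise comparisons, each fitted on its own libraries; filled points passed an edgeR adjusted p under 0.05. In HF-C vs LF-C 7 filled points lie left of 0, in HF-KO vs HF-C 5 lie right of 0, and the other panels hold none.

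The third comparison asked how the livers labelled HF-KO differed from HF-C on the same diet. Of the 10 genes, 5 were higher in HF-KO and 0 were lower (edgeR), where 4.35% of 13915 genes were called higher and 9.77% were called in either direction. The genes that rose were Acmsd, Tdo2, Afmid, Haao and Kynu. The median log2 fold change of the 10 was 0.61, against 0.02 over all genes. This comparison shares its HF-C libraries with the first, so a low value in HF-C enters both.

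Tdo2 measured 947, 961, 1039, 790 and 770 CPM in HF-C and 1195, 1314 and 2572 CPM (lowest, median and highest of 6) in HF-KO. All HF-KO libraries were above all HF-C libraries. The log2 fold change was 0.83 ± 0.20 (edgeR, adjusted p = 0.0219), and without HF-KO-2, the highest library, it was 0.62 (edgeR, adjusted p = 0.00526). The call was lost without HF-C-4, HF-C-5 or HF-KO-3, with adjusted p values up to 0.0626 (edgeR). Ido2 measured 43.6, 89.0 and 94.8 CPM in HF-KO against 37.6 to 57.1 CPM in HF-C. HF-KO-2 and HF-KO-6 lay in the HF-C range and the other libraries above it. The log2 fold change of 0.68 ± 0.21 did not pass (edgeR, adjusted p = 0.0570), and it passed without HF-KO-2 (0.80, edgeR, adjusted p = 0.00677) or HF-KO-6 (0.77, edgeR, adjusted p = 0.0371).

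Afmid measured 14.6, 17.1 and 19.7 CPM in HF-KO against 8.33 to 13.5 CPM in HF-C, with a log2 fold change of 0.76 ± 0.14 (edgeR, adjusted p = 0.00605). Kynu measured 164, 181 and 221 CPM against 111 to 152 CPM, with a log2 fold change of 0.60 ± 0.12 (edgeR, adjusted p = 0.00995). Haao measured 395, 420 and 603 CPM against 261 to 342 CPM, with a log2 fold change of 0.63 ± 0.14 (edgeR, adjusted p = 0.0151). In these genes no HF-KO library reached down to the HF-C range, and each kept its call whichever of the 11 libraries was left out. With all 19 libraries in 1 fit, Kynu (0.57, edgeR, adjusted p = 0.0524) and Haao (0.59, edgeR, adjusted p = 0.180) did not pass. With Tdo2 that made 4 of 10 genes without overlap, against 4.05% of all genes above in every library. Tk1, which overlaps Afmid, had a log2 fold change of 0.46 ± 0.17 (edgeR, adjusted p = 0.107).

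Acmsd measured 11.6, 18.8 and 23.6 CPM in HF-KO against 9.29, 7.81, 14.5, 6.65 and 8.11 CPM in HF-C. HF-C-3 reached into the HF-KO range. The log2 fold change of 0.96 ± 0.23 (edgeR, adjusted p = 0.0215) was the highest of the 10, and the call was lost without HF-KO-3, or without any 1 HF-C library other than HF-C-1 and HF-C-3, with adjusted p values up to 0.0626 (edgeR). The remaining genes did not pass. Kmo had a log2 fold change of 0.35 ± 0.13 (edgeR, adjusted p = 0.0935), and Nampt had 0.21 ± 0.20 (edgeR, adjusted p = 0.500). Qprt, at 176 to 212 CPM in HF-KO and 170 to 196 CPM in HF-C, had 0.13 ± 0.09 (edgeR, adjusted p = 0.349). Nadsyn1, at 14.8 to 22.2 CPM and 15.6 to 21.6 CPM, had 0.005 ± 0.13 (edgeR, adjusted p = 0.983), and its sign changed with single libraries. The genes that passed lie between tryptophan entry and the branch point, but Ido2 and Kmo of the same stretch did not pass. Qprt, Nadsyn1 and Nampt, which lead on to NAD, did not pass either. Whether the upstream and downstream genes differed from each other was not tested.

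Cell markers also differed between these groups. Hepatocyte markers were higher in 3 of 12 cases, where 4.35% of all genes were, the median log2 fold change being 0.17. They summed to 70110 to 84880 CPM in HF-KO against 53670 to 68680 CPM in HF-C. Most of that sum was Alb, at 42280 ± 2776 CPM in HF-KO and 32280 ± 4211 CPM in HF-C. Alb (0.42), Ttr (0.605) and Cps1 (0.623) were called, and the other hepatocyte markers, down to Cyp2e1 at 0.03, were not. Of 12 macrophage and monocyte markers, 5 were lower, where 5.43% of all genes were called lower. These 12 markers summed to 481 to 917 CPM in HF-KO against 728 to 1154 CPM in HF-C. Sinusoidal endothelial cell markers were called in 0 of 6 cases, and all 6 estimates were above 0 (median 0.25). Cholangiocyte markers were lower in 4 of 5 cases, at 87.4 to 189 CPM against 156 to 513 CPM, and stellate cell and fibroblast markers in 3 of 7, at 342 to 479 CPM against 595 to 947 CPM. Most of the cholangiocyte sum was again Spp1, at 129 ± 36.6 CPM in HF-KO and 335 ± 130 CPM in HF-C. The part of all these markers in the rise of the 5 genes was not tested.

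The fourth comparison asked for an effect of the knockout label on the low fat diet. None of the 10 genes passed between LF-KO and LF-C (0 of 10 by edgeR and by DESeq2, 0 at an unadjusted p under 0.05), and 0 of 13056 genes passed at all (percent called 0, 554 genes at an unadjusted p under 0.05, 5 called by DESeq2). The point estimates fell on both sides of 0, 5 above and 5 below, with a median of -0.01. Tdo2 measured 1614, 1735, 2036 and 1943 CPM in LF-KO, above all LF-C libraries, and its log2 fold change of 0.48 ± 0.23 (edgeR, adjusted p = 0.704) was 0.28 without LF-C-1 and LF-C-2. Groups of this kind, all libraries above, made up 1.81% of all genes. Haao had the most negative value, -0.68 ± 0.37 (edgeR, adjusted p = 0.704), which was 0.05 without LF-C-1 and LF-C-2.

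Whether the difference with the knockout label depended on diet was tested as an interaction over all 19 libraries. None of the 10 genes passed by edgeR, where 0.202% of 14391 genes were called. At an unadjusted p under 0.05 (edgeR) stood 5 of the 10 and 1856 of the 14391 genes. DESeq2 called 1 of the 10, Haao, where it called 193 of 15717 genes. The estimates, the HF difference minus the LF difference, were above 0 for 9 of 10 genes, with a median of 0.45. Haao had 1.29 ± 0.37 (edgeR, adjusted p = 0.156), and without LF-C-1 and LF-C-2 it had 0.57 (edgeR, adjusted p = 0.315). Acmsd had 1.16 ± 0.38 (edgeR, adjusted p = 0.233), or 1.14 without those libraries, followed by Ido2 at 0.75 ± 0.33, Afmid at 0.67 ± 0.30 and Qprt at 0.56 ± 0.25. Without LF-C-1 and LF-C-2, Ido2 had 0.99, Afmid 0.74 and Qprt 0.10 (edgeR, adjusted p = 0.852). The calls in HF-KO vs HF-C and their absence in LF-KO vs LF-C are therefore not shown to differ. The same contrast asks whether the difference with diet depended on the knockout label. The calls in HF-C vs LF-C and their absence in HF-KO vs LF-KO are likewise not shown to differ.

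The rest of tryptophan and NAD metabolism was described with a list of 46 genes, of which 45 were in the tables and 39 were tested in HF-C vs LF-C. There, 8 of 39 were lower, where 7.15% of all genes were, and 4 of 39 were higher, close to the 10.6% of all genes. The median log2 fold change was -0.27. Of the 5 tested genes of tryptophan entry and side branches 3 fell, each a transaminase that can turn kynurenine into kynurenic acid, while Got2, another such transaminase, did not pass (-0.41 ± 0.17, edgeR, adjusted p = 0.117). Kyat1 went from 128 ± 36.5 to 41.5 ± 7.79 CPM (log2 fold change -1.65 ± 0.23, edgeR, adjusted p = 0.00112). Aadat went from 91.5 ± 8.37 to 50.2 ± 5.25 CPM (-0.89 ± 0.14, edgeR, adjusted p = 0.00241). Of the glutarate branch, which takes over after Acmsd, 2 of 3 genes fell, among them Aldh8a1, the dehydrogenase next in line, from 380 ± 48.5 to 231 ± 27.2 CPM (-0.74 ± 0.15, edgeR, adjusted p = 0.00871).

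Nnmt, which methylates nicotinamide and so removes it from salvage, fell the most, from 174 ± 125 to 35.2 ± 8.60 CPM. Its log2 fold change was -2.34 ± 0.40 (edgeR, adjusted p = 0.00321), and without LF-C-1 and LF-C-2 it was -1.66. Sirt3, the mitochondrial deacetylase that consumes NAD, went from 138 ± 27.7 to 69.3 ± 4.38 CPM (-1.02 ± 0.17, edgeR, adjusted p = 0.00291). In the opposite direction, Slc7a8, a carrier of neutral amino acids, rose from 6.08 ± 2.11 to 22.7 ± 3.17 CPM (1.88 ± 0.24, edgeR, adjusted p = 0.000857). Each of these 6 genes kept its call whichever library was left out. Without LF-C-1 and LF-C-2 all 6 were called as well, with Kyat1 at -1.25, Aadat at -0.84, Aldh8a1 at -0.65, Sirt3 at -0.73 and Slc7a8 at 1.67. With library size alone, Aadat (-0.45, edgeR, adjusted p = 0.0571) and Aldh8a1 (-0.32, edgeR, adjusted p = 0.211) did not pass.

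The other called genes of the list are named for completeness, after their values were seen. Kyat3 (-0.66), Gcdh (-0.76) and Naprt (-1.17), the entry enzyme for nicotinic acid, were lower on the log2 scale, and Naprt had -0.26 (edgeR, adjusted p = 0.163) without LF-C-1 and LF-C-2. Without those libraries Kyat3 had -0.57 and Gcdh -0.48, and both passed. Aox1 (0.83), Parp14 (0.85) and Cd38 (0.56), an NAD glycohydrolase of immune and other cells, were higher, and without LF-C-1 and LF-C-2 they had 0.72, 0.68 and 0.42 and passed. Of these, Aox1 and Parp14 kept their call in every fit that left out 1 library. Kyat3 lost it without LF-C-1, HF-C-1 or HF-C-2, Gcdh without HF-C-1 or HF-C-5, and Naprt and Cd38 without LF-C-1 or any 1 HF-C library. With library size alone Kyat3 (-0.24, edgeR, adjusted p = 0.375), Gcdh (-0.29, edgeR, adjusted p = 0.118) and Naprt (-0.61, edgeR, adjusted p = 0.105) did not pass, and with no filter on low counts Cd38 did not (edgeR, adjusted p = 0.0625).

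In HF-KO vs HF-C, 3 of 40 genes of the list were higher and 2 were lower, where 4.35% of all genes were higher and 5.43% lower, so the share called in the list was near that of all genes. Nnmt went from 35.2 ± 8.60 to 72.5 ± 37.1 CPM (log2 fold change 1.08 ± 0.32, edgeR, adjusted p = 0.0469), Aldh8a1 from 231 ± 27.2 to 313 ± 37.4 CPM (0.47 ± 0.12, edgeR, adjusted p = 0.0279) and Nadk2, the mitochondrial NAD kinase, from 153 ± 15.5 to 208 ± 23.3 CPM (0.47 ± 0.11, edgeR, adjusted p = 0.0221). Parp3 (-0.42 ± 0.11, edgeR, adjusted p = 0.0288) and Slc3a2, the shared heavy chain of amino acid carriers (-0.42 ± 0.11, edgeR, adjusted p = 0.0333), were lower. All 5 lost the call without HF-KO-3, HF-C-4 or HF-C-5. Nadk2 also lost it without HF-C-3, Parp3 without HF-C-2 or HF-KO-5, Aldh8a1 without HF-C-1 or HF-C-2, Slc3a2 without HF-C-1, HF-C-3, HF-KO-5 or HF-KO-6, and Nnmt without any 1 HF-C library, HF-KO-1 or HF-KO-6 (adjusted p up to 0.118, edgeR). With all 19 libraries in 1 fit none of the 5 passed, at edgeR adjusted p values from 0.0667 (Aldh8a1) to 0.244 (Nadk2). Slc3a2 also did not pass with no filter on low counts (edgeR, adjusted p = 0.0552), and Nnmt did not with library size alone (edgeR, adjusted p = 0.0569). In HF-KO vs LF-KO, Cd38 alone of 40 genes passed, where 4.68% of all genes did, going from 15.7 ± 3.94 to 27.1 ± 4.96 CPM (0.79 ± 0.19, edgeR, adjusted p = 0.0370), and it did not pass without LF-KO-4 or LF-KO-3, or without any 1 HF-KO library other than HF-KO-2 and HF-KO-5 (adjusted p up to 0.142, edgeR). In LF-KO vs LF-C 0 of 39 passed. Nnt (0.54) and Naprt (-0.66) had the smallest p there, both at an edgeR adjusted p of 0.704, and without LF-C-1 and LF-C-2 they had 0.32 and 0.25. In the interaction 0 of 41 passed, with Sirt3 (0.77, edgeR, adjusted p = 0.249) and Nnmt (1.55, edgeR, adjusted p = 0.294) at the smallest p. Without LF-C-1 and LF-C-2, Sirt3 had 0.50 and Nnmt 0.88.

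**Figure D4:**
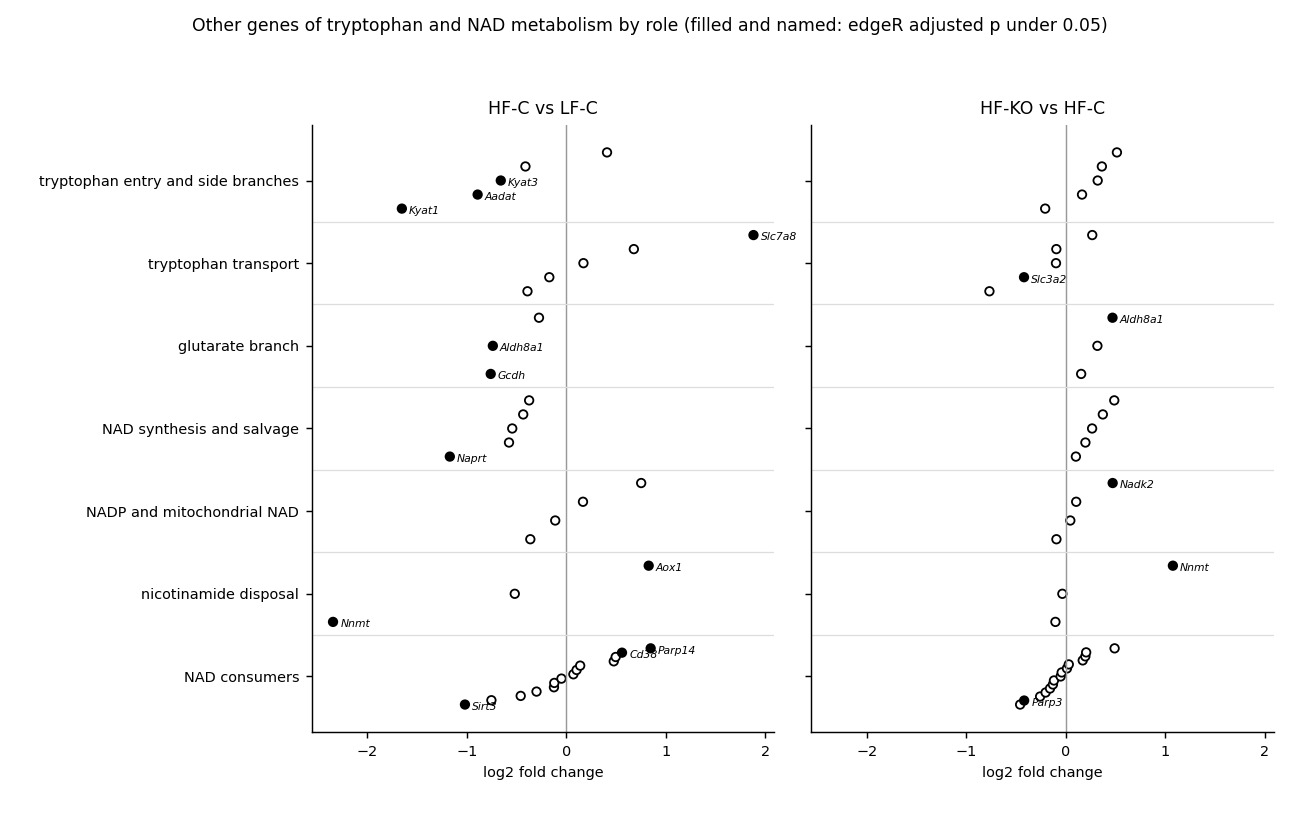
Log2 fold changes of the other genes of tryptophan and NAD metabolism, in rows by role, for HF-C vs LF-C and HF-KO vs HF-C; filled, named points passed an edgeR adjusted p under 0.05. In HF-C vs LF-C 8 filled points lie below 0 and 4 above, and in HF-KO vs HF-C 2 lie below and 3 above.

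The authors' deposited table, made with their own comparison, calls 9 of the 10 genes lower in HF-C than in LF-C at an adjusted p under 0.05, all but Nampt, where it calls 11.8% of 16904 genes lower. For HF-KO vs LF-KO the authors' deposited table calls 1 of the 10 lower, Nadsyn1, where it calls 2.86% of 15648 genes lower. For HF-KO vs HF-C the authors' deposited table calls 6 higher, Ido2 besides the 5 above, where it calls 6.82% of 15476 genes higher. For LF-KO vs LF-C the authors' deposited table calls 0 of the 10 and 0.0231% of 21623 genes.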

How the data were processed

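RNA of 19 mouse livers was sequenced. Per the labels' protocols, RNA with an integrity number over 7 was extracted with Trizol, and NEBNext Ultra libraries without strand information, with inserts of 250 to 300 bp, were read as pairs of 150 nt. Per the submitters' processing notes the tools were STAR 2.5, DESeq2 and HTSeq 0.6.1. Build and annotation were not given in the sources used here, though 6 of the 10 members stand at the same position in GENCODE M21.

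The authors deposited 4 tables, 1 per pair of groups. Per the file headers they hold read counts per gene and library. The deposited FPKM values are counts relative to gene length and library total, as recomputed from the counts to within a relative 4.98e-12. The deposited log2 fold changes and p-values are the authors' own and were used only to give their calls. The deposited normalised group means (a signal per gene scaled by the authors) were not used. Joining the tables on the gene identifier gave 24192 genes. All 38 library columns compared between tables were equal within 1e-09, and 0 columns lacked a label. Replicates within a group differed by more than counting error, with a mean chi-square of at least 7.61 per gene where counting alone gives about 1.

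Counts were tested in R 4.3.3 with edgeR 4.0.16 (TMM factors, filterByExpr, quasi-likelihood F test, two-sided) on the libraries of each pair, with the interaction on all 19. P-values were adjusted by Benjamini-Hochberg over all genes tested, and a call is an adjusted p under 0.05. SEs were taken as the size of the log2 fold change over the square root of F. Levels are CPM scaled by TMM factors from the 19 libraries together, as mean ± SD. The scripts were tested on simulated data with known changes. Alternatives were RLE factors, library size alone, no filter, DESeq2 1.42.0, the replicate number as a block, all 19 libraries in 1 fit, and leaving out each library. The p-values measure the spread between single mice.

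The members and lists were chosen with earlier results of these data known. Genes named besides the members were Pparg, the called genes of a list of 46 (at most 6 with the smallest p, or the 2 smallest where none passed), and the 2 genes most like Tdo2, Kynu, Acmsd and Nampt. Outside that rule, 6 further called genes of the list in HF-C vs LF-C, Got2, Ido1 and the overlapping genes Tk1, Fh1 and Gdap10 were named after their values were seen. Of listed and marker genes, 4 were found under an older symbol and 1 (Nmrk2) was not in the tables. Promoters are from RefSeq (GRCm38.p6) and those of 7 of the 10 members, matched by symbol, were used. The other promoters are not reported here.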

Additional observations from a re-analysis of the deposited data

Results flagged for a closer look

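Tdo2 in HF-KO-2, at 2572 CPM, stood far from the other 5 HF-KO libraries, which ranged from 1195 to 1703 CPM. It was the only such library among 40 combinations of gene and group tested, and chance alone flags about 1 in 20. HF-KO-2 also had the lowest Ido2 and Nadsyn1 and the highest Kmo, Kynu, Haao, Acmsd and Nampt of its group, and its deviation from the group followed gene length (rho -0.49 across genes). In HF-KO vs HF-C, Tdo2, Afmid, Kynu, Haao and Acmsd kept their calls without it, and Ido2 was called as well. Without it the Tdo2 log2 fold change of HF-KO over HF-C was 0.62 in place of 0.83, and passed in both cases.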

How the results depend on the processing

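Of the 10 genes, the number called in HF-C vs LF-C was 7 with RLE factors, 8 with all 19 libraries in 1 fit, 9 with DESeq2, 4 with library size alone or no filter on low counts, and 4 to 9 with 1 library left out. Over all genes, those called lower also moved, from 988 of 13825 in the main fit to 1219 of 13825 with RLE factors. They were 1883 of 14391 with all 19 in 1 fit and 2003 of 16785 with DESeq2. With library size alone they were 326 of 13825, and with no filter 821 of 22580. With the replicate block 2 of the 10 were called, where 149 of 13596 genes were called lower. The replicate numbers did not pair the libraries (correlations of same-numbered deviations from -0.29 to 0.11 in this comparison), so that fit is given here only. In HF-KO vs HF-C the number of the 10 called was 5 with RLE factors, library size alone, no filter or the replicate block, 6 with DESeq2, 3 with all 19 libraries in 1 fit, and 3 to 6 with 1 left out. Over all genes, those called higher there were 588 of 13915 with RLE factors, 345 of 13915 with library size alone and 482 of 23445 with no filter. They were 301 of 13771 with the block, 1042 of 15714 with DESeq2 and 197 of 14391 with all 19 in 1 fit. In HF-KO vs LF-KO the number of the 10 called was 1 with DESeq2 and 0 to 2 with 1 left out. In the interaction it was 1 with DESeq2 and 0 with any library left out, and in LF-KO vs LF-C it was 0 throughout.

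Over all genes, HF-C vs LF-C called 3855 with DESeq2, 666 with the replicate block, 3795 with all 19 in 1 fit, 4213 without LF-C-1 and LF-C-2, and 1451 to 3478 with 1 left out. HF-KO vs LF-KO called 1330 with DESeq2, 175 with the block and 0 to 1214 with 1 left out, the 0 without LF-KO-3. HF-KO vs HF-C called 2245 with DESeq2, 781 with the block, 531 with all 19 in 1 fit and 704 to 1813 with 1 left out. LF-KO vs LF-C called 5 with DESeq2, 1 with all 19 in 1 fit, 2 without LF-C-1 and LF-C-2, and 0 to 1 with 1 left out. The interaction called 15 with library size alone, 193 with DESeq2, 7 with the block, 65 without LF-C-1 and LF-C-2, and 7 to 48 with 1 left out.

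Library size alone moved the median of all genes by 0.40 (HF-C vs LF-C), 0.18 (HF-KO vs LF-KO), -0.13 (HF-KO vs HF-C), 0.13 (LF-KO vs LF-C) and -0.23 (interaction), and the share of calls that were higher from 59.8% to 89.3%, from 77.4% to 94.8% and from 44.5% to 25.4% in the first 3. Relative to that median, the median of the 10 genes moved from -0.74 to -0.70, from -0.36 to -0.37 and from 0.59 to 0.58.

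Signs changed as follows, none of them past the threshold. Without LF-C-1 and LF-C-2, Nampt was -0.14 in HF-C vs LF-C, Kmo -0.15, Haao 0.052, Qprt 0.027, Nadsyn1 0.040, Nampt -0.070 and Naprt 0.25 in LF-KO vs LF-C, and Nadsyn1 -0.041 and Nampt 0.27 in the interaction. With library size alone, Qprt was 9.40e-05 in HF-KO vs LF-KO, Nadsyn1 -0.11 in HF-KO vs HF-C, Ido2 0.0067 in LF-KO vs LF-C, and Kmo -0.039 and Nadsyn1 -0.049 in the interaction. Nadsyn1 in HF-KO vs HF-C was -0.0082 with no filter and -0.023 with all 19 in 1 fit, and Afmid in LF-KO vs LF-C was -0.0036 with the replicate block. With 1 library left out, values crossed 0 for Nampt in HF-KO vs LF-KO (-0.074 to 0.28), Nadsyn1 in HF-KO vs HF-C (-0.080 to 0.066), Ido2 (-0.24 to 0.021), Afmid (-0.15 to 0.28) and Acmsd (-0.34 to 0.026) in LF-KO vs LF-C, and Nampt in the interaction (-0.71 to 0.065). The causes were not tested.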

Other observations

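Across the 19 libraries, the genes whose centred log2 CPM lay nearest to that of Tdo2 were Cfhr2 and Ghr, the growth hormone receptor, with root mean square differences of 0.17 each, where Tdo2 itself varied by 0.48 about its mean. This was computed over the 10019 genes whose mean reached 5 CPM. For Kynu the nearest were Cyp2j5 (0.18) and Paics (0.19), where Kynu varied by 0.39. For Acmsd they were Cyp2c70, a bile acid hydroxylase of mouse liver, (0.33) and 2310001H17Rik (0.34), against 0.65. For Nampt they were Nsun3 (0.20) and Ube2w (0.22), against 0.48. Libraries share their scaling and their length-related deviations in these values.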
